A study of Mus musculus with 3 samples.

Results

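The immunity-related GTPases are a family of interferon-inducible GTP-binding proteins that act on intracellular membranes. The members described here are Irgm1, Irgm2, Igtp, Iigp1, Tgtp1, Tgtp2 and Ifi47. They were taken by gene symbol and found by gene identifier in every library, 7 of the 55536 annotated genes measured. RefSeq also lists Igtp as Irgm3, Iigp1 as Irga6, Tgtp1 as Irgb6 and Ifi47 as Irgd. Iigp1 lies on chromosome 18 and the 6 others lie in clusters on chromosome 11 (mm10).

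In mice the family falls into regulators and effectors. The effectors load onto the vacuoles in which Toxoplasma gondii and Chlamydia live and help to break them. The regulators sit on the cell's own membranes and hold the effectors in the inactive GDP-bound form there. Interferon gamma and type I interferon switch these genes on in macrophages, and ligands of Toll-like receptor 4 reach them largely through secreted interferon beta.

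The samples were a single group of 3 libraries of bone-marrow-derived macrophages of the strain C57BL/6J. Lipid A, the part of endotoxin that Toll-like receptor 4 binds, was given at 100 ng/ml for 12 h, removed for 12 h, and given a further time at 100 ng/ml for 10 min. Cytosolic RNA depleted of ribosomal RNA was then sequenced. The labels number the libraries as biological replicates 1, 2 and 3 and give all of them the same donor identifier, so the spread between these libraries may be technical. P-values between libraries ask whether counts differ by more than read sampling and do not measure the size of that spread. Libraries of unstimulated cells, of cells stimulated a single time and of nuclear RNA were not analysed here, and the values therefore describe restimulated cells without showing a response to Lipid A. Totals were 32108408, 53165872 and 57117456 expected counts in replicates 1, 2 and 3. All 8 macrophage markers checked reached 10 TPM in every library, beside 17.3% of nuclear-encoded protein-coding genes. TPM is a read abundance divided by transcript length and brought to the same total in every library. Markers of lymphocytes, fibroblasts and erythroid cells summed to 0.54 TPM or less per list and library, dendritic cell markers to 1.47 TPM or less and neutrophil markers to 7.09 to 11.1 TPM, with Ly6g, Retnlg, Cd3e, Nkg7, Cd209a and Hbb-bs at 0 counts in every library.

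The coding sequences show how the family divides. In most GTPases the nucleotide-binding loop holds a lysine, and the regulators, called GMS proteins, carry a methionine there where the effectors, called GKS proteins, keep the lysine. The stretch that encodes this loop was found once, in frame, in the leading transcript of each of the 7 members. It is shown for the 6 members on chromosome 11, 5′ to 3′ on the coding strand, from GENCODE M21 transcripts on mm10, with the codon of that residue in capitals.
Irgm1 (chr11:48866761-48866784, minus strand): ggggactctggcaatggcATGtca
Irgm2 (chr11:58219695-58219718, plus strand): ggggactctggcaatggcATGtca
Igtp (chr11:58206275-58206298, plus strand): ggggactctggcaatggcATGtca
Tgtp1 (chr11:48987667-48987690, minus strand): ggggaaacaggcgcagggAAGtcc
Tgtp2 (chr11:49059534-49059557, minus strand): ggggaaacaggcgcagggAAGtcc
Ifi47 (chr11:49095648-49095671, plus strand): gggcagtctgggactggcAAGtcc
The capital codon was ATG in Irgm1, Irgm2 and Igtp and AAG in Tgtp1, Tgtp2, Ifi47 and, by the same search, Iigp1. The 24 bases were identical in the 3 regulators, and identical in Tgtp1 and Tgtp2. Over whole coding sequences the regulators shared 62.6% to 66.9% of aligned bases with each other and 49.9% to 52.9% with the effectors. Tgtp1 and Tgtp2 shared 99.7%, and the other pairs of effectors 55.0% to 57.7%.

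Promoters were searched for the letters of a pair of interferon-linked elements. TTCNNNGAA is the spacing of a gamma-activated site (GAS), an element of interferon gamma responses, and GAAANNGAA is the core of an interferon-stimulated response element (ISRE), which IRF proteins bind. RefSeq windows (GRCm38.p6, the mm10 assembly) run from 250 bases before to 50 after a gene's start, and both strands were read. The table held windows for 6 members, and no window was used for Iigp1. Those with a match are shown with 15 bases on either side of the outer matches and the matched letters in capitals, because 4 of them carry the same arrangement.
Irgm2 (chr11:58214887-58214936, plus strand): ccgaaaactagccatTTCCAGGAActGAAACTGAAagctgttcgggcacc
Igtp (chr11:58199496-58199545, plus strand): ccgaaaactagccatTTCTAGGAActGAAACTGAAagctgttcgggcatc
Tgtp1 (chr11:48992300-48992349, minus strand): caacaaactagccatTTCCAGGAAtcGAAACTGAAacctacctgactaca
Tgtp2 (chr11:49064259-49064308, minus strand): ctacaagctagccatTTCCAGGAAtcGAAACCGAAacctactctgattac
Irgm1 (chr11:48871421-48871465, minus strand): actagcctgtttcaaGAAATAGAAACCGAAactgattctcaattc
In Irgm2, Igtp, Tgtp1 and Tgtp2 the ISRE match began 11 bases after the start of the GAS match, without overlap. The matches lay 75, 45, 88 and 81 bases before the start for GAS and 64, 34, 77 and 70 bases before it for ISRE in Irgm2, Igtp, Tgtp1 and Tgtp2. Irgm1 held no GAS match in its window and a pair of ISRE matches that overlap, 30 and 24 bases before the start. Of all 32851 windows, 8.3% held a GAS match, 8.56% an ISRE match and 1.07% both. The spacing of 11 bases, noticed after the members had been read, occurred in 8 windows (0.0244%), which belong to Irgm2, Igtp, Tgtp1, Tgtp2, the related gene Gm12185, Adar, Olfr382 and LOC115488470. Whole windows of Irgm2 and Igtp shared 72.8% of aligned bases, those of Tgtp1 and Tgtp2 66.8%, and the other pairs 38.6% to 49.6%. Ifi47 held neither motif, but its RefSeq window lies at the start of Ifi47-202, 10452 bases upstream of the start of Ifi47-201, the transcript that held most of its reads. A match is a run of letters and says nothing of binding.

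All 7 genes were expressed, and 6 of them were abundant. All reached 1 TPM in every library, and 6 of 7 reached 10 TPM in every library, a level that 17.3% of 22015 nuclear-encoded protein-coding genes reached. Tgtp1 was the exception. The share of all genes that reached 1 TPM was not counted. Summed TPM of the family was 1170.4, 507.1 and 600.5 in replicates 1, 2 and 3, and its genes took 0.377%, 0.196% and 0.24% of all gene counts. In RNA from a bulk culture, fewer cells with a transcript and less of it per cell cannot be told apart. Nuclear-encoded protein-coding genes held 34.3%, 27.8% and 27.8% of TPM in replicates 1, 2 and 3, so part of a difference in TPM between libraries comes from this denominator. Within the protein-coding genes alone, scaled to the same total, Irgm1 stood at 783, 603 and 627 and Tgtp1 at 152, 28.9 and 34.6 in replicates 1, 2 and 3. The members rested on 1886 (Tgtp1, replicate 2) to 36129 (Tgtp2, replicate 3) expected counts per library.

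**Figure D1:**
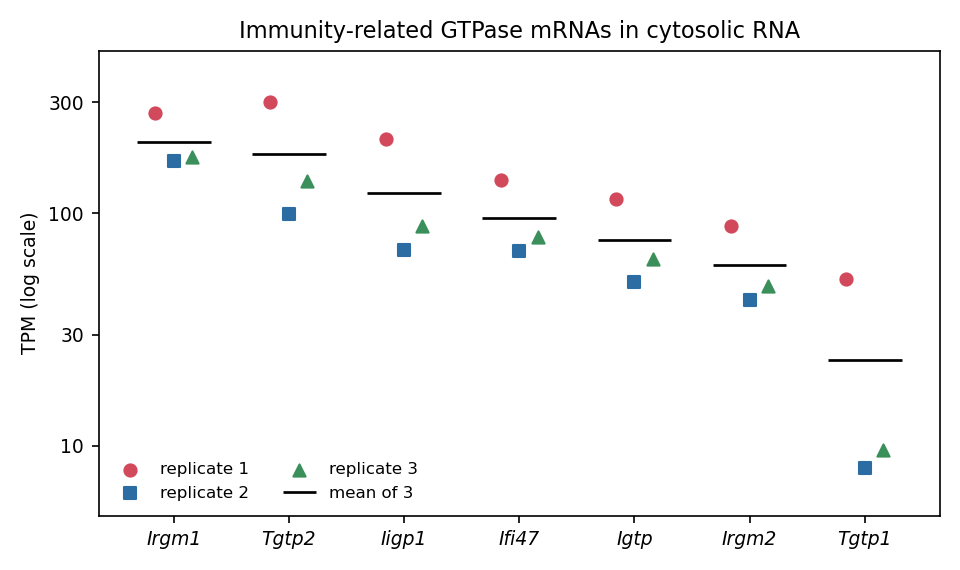
TPM (log axis) of the 7 immunity-related GTPase genes in each of the 3 libraries, with the mean as a bar, in order of mean level. Replicate 1 is the highest point for each gene, and Tgtp1 spans 8.03 to 52.25 TPM.

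Among the regulators Irgm1 was the most abundant. Irgm1 (ENSMUSG00000046879.7, at 48861968 to 48871683 on chromosome 11) guards the effectors on Golgi and lysosomal membranes, and mice that lack it are highly susceptible to Mycobacterium tuberculosis and Toxoplasma gondii. It stood at 269, 167 and 174 TPM in replicates 1, 2 and 3 (203.4 ± 56.8, SD, n = 3), at percentile 99.0 or above of nuclear-encoded protein-coding genes in every library. Igtp (ENSMUSG00000078853.8, at 58199556 to 58207591 on chromosome 11), a regulator at the endoplasmic reticulum, stood at 115, 50.7 and 63.9 TPM (76.41 ± 33.8). Irgm2 (ENSMUSG00000069874.7, at 58199618 to 58222782 on chromosome 11), a regulator at the Golgi, stood at 88.2, 42.5 and 48.4 TPM (59.72 ± 24.9). Replicate 1 was the highest and replicate 2 the lowest library for each of the 3 regulators. Their ratios varied less between libraries than their TPM levels, whose CV was 27.9% for Irgm1, 41.6% for Irgm2 and 44.3% for Igtp. Part of the spread in TPM comes from the denominator, which cancels in a ratio. Igtp over Irgm2 was 1.3, 1.19 and 1.32 in TPM (CV 5.43%), and Irgm1 over Irgm2 was 3.05, 3.94 and 3.59 (CV 12.7%). Irgm1 over Igtp was 2.34, 3.31 and 2.72 (CV 17.4%). Scaled within protein-coding genes, the levels were 671 ± 97.8 for Irgm1, 195 ± 54.9 for Irgm2 and 249 ± 77.6 for Igtp. On that scale Irgm1 itself varied relatively less than its ratio to Igtp.

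Among the effectors Tgtp2 was the most abundant. Tgtp2 (ENSMUSG00000078921.3, at 49057194 to 49064206 on chromosome 11) stood at 299.7, 99.6 and 138 TPM in replicates 1, 2 and 3 (179 ± 106). Its near copy Tgtp1 (ENSMUSG00000078922.9, at 48985327 to 48994172 on chromosome 11), which RefSeq lists as Irgb6, stood at 52.25, 8.03 and 9.59 TPM (23.29 ± 25.1). Irgb6 is an effector that binds phospholipids of the vacuole. Both copies spell the same amino acids (substitutions below). Tgtp1 alone therefore does not give the level of all mRNA for this protein. Summed over both copies, that level was 202 ± 131 TPM. Iigp1 (ENSMUSG00000054072.12, at 60376027 to 60392634 on chromosome 18), the gene of Irga6, an effector that oligomerises on the vacuole membrane, stood at 208, 69.7 and 88.0 TPM (121.9 ± 75.1). Ifi47 (ENSMUSG00000078920.3, at 49076587 to 49096974 on chromosome 11), the gene of the effector Irgd, stood at 139, 69.1 and 78.9 TPM (95.56 ± 37.6). Every effector, like every regulator, was highest in replicate 1 and lowest in replicate 2, and on the scale of log2 counts used further on 39.8% of all genes tested were highest in replicate 1. Without replicate 1 the mean level was 8.81 TPM for Tgtp1, 118.7 TPM for Tgtp2 and 78.87 TPM for Iigp1.

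By mean TPM the order was Irgm1, Tgtp2, Iigp1, Ifi47, Igtp, Irgm2 and Tgtp1. The ranges of neighbours in this order overlapped for all 6 neighbouring pairs, with every gene high in replicate 1 at once. Read within a library, 5 of these 6 pairs kept their order in 3 of 3 libraries. The exception was the leading pair, in which Irgm1 over Tgtp2 was 0.897, 1.68 and 1.26 in replicates 1, 2 and 3, so these genes are not separated. Iigp1 over Ifi47 was 1.5, 1.01 and 1.12, close to even in replicate 2. The steps were wider in every library for Tgtp2 over Iigp1 (1.44, 1.43 and 1.57), Ifi47 over Igtp (1.21, 1.36 and 1.24) and Irgm2 over Tgtp1 (1.69, 5.3 and 5.05), as for Igtp over Irgm2 above.

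All 7 genes were higher in replicate 1 than in either other library also after composition scaling. Counts scaled to TMM library sizes (CPM, with a prior count of 2) were compared on the log2 scale as replicate 1 minus the mean of replicates 2 and 3. This difference was 0.39 for Irgm1, 0.63 for Ifi47, 0.69 for Irgm2, 0.75 for Igtp, 1.07 for Tgtp2, 1.08 for Iigp1 and 2.33 for Tgtp1. Tgtp1 was thus 5.01-fold higher in replicate 1, the others 1.31-fold to 2.12-fold. Over all 12515 genes with enough counts the median difference was -0.01 and the central 95% ran from -0.79 to 1.54, so 6 members lay inside that range and Tgtp1 outside it. Those 6 lay in its upper part, at percentiles 82.7 (Irgm1) to 95.4 (Iigp1) of all genes, and Tgtp1 at percentile 98.8. Beside the 39.8% of genes that were highest in replicate 1, the order replicate 1, then 3, then 2 that every member followed occurred in 24.2%.

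Each member also varied between libraries beyond counting error. In the chi-square test against a single rate, with edgeR's TMM library sizes and Benjamini-Hochberg adjustment over 12515 genes, the largest adjusted p among the 7 was 2.69e-280, for Irgm1. Of all genes tested, 71.5% passed this test at an adjusted p of 0.05, so passing it does not set the members apart. Between replicates 2 and 3 alone all 7 passed as well, beside 40.4% of 12697 genes, and each was lower in replicate 2, by 0.10 (Irgm1) to 0.52 (Tgtp2) on the log2 CPM scale. The tagwise biological coefficient of variation (BCV, the spread between replicates beyond counting, from edgeR) was 0.177 for Irgm1, 0.212 for Ifi47, 0.227 for Irgm2, 0.241 for Igtp, 0.317 for Iigp1, 0.321 for Tgtp2 and 0.587 for Tgtp1. The median over all genes tested was 0.172. The BCV of Tgtp1 lay at percentile 98.4 of all genes tested and the other 6 lay between percentiles 51.8 and 79.9.

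RNAs known to stay in the nucleus moved with the same library. Malat1, Neat1, Xist, Kcnq1ot1 and Firre were all highest in replicate 1, 5 of 5, beside 39.8% of all genes tested. Their log2 CPM differences were 3.4, 2.37, 6.15, 5.54 and 2.25. Their summed level was 1435, 133 and 170 TPM in replicates 1, 2 and 3. Kcnq1ot1 is annotated as antisense, and with no strand setting stated its reads cannot be told from those of the opposite strand. Genes used as housekeeping references (Actb, Gapdh, Ppia, Hprt and Tbp) had differences of 0.17, -0.47, -0.28, -0.14 and 0.53. The median over the 8 macrophage markers was -0.06, with single markers from -0.27 to 0.44. Of these 8 markers, 3 were highest in replicate 1, beside the same 39.8% of all genes tested, and 3 were lowest there. The part of nuclear RNA in the higher level of the members in replicate 1 was not tested.

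**Figure D2:**
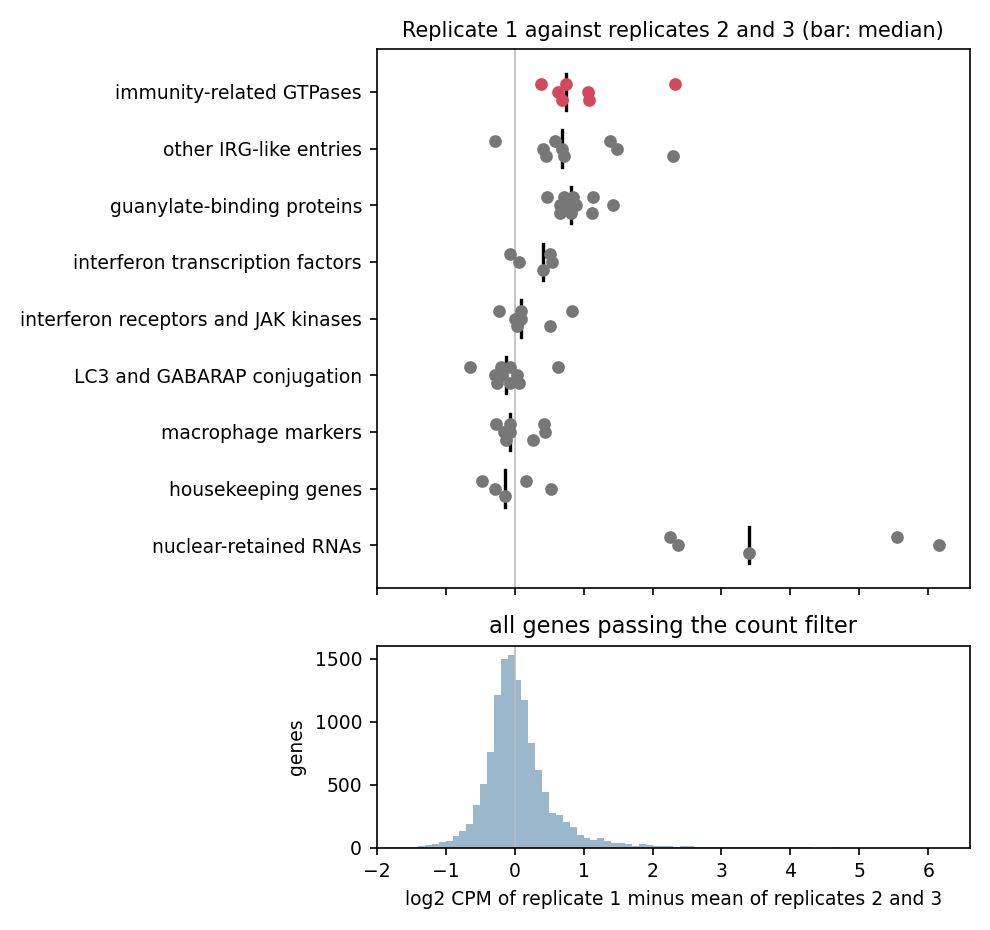
Log2 CPM of replicate 1 minus the mean of replicates 2 and 3 for each gene of 9 lists (points, with the list's median as a bar) and, below, for all 12515 genes tested. The 7 immunity-related GTPases lie between 0.39 and 2.33, the guanylate-binding proteins between 0.47 and 1.42, and the nuclear-retained RNAs between 2.25 and 6.15.

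Tgtp1 and Tgtp2 could be told apart at few positions. Their leading transcripts, Tgtp1-201 and Tgtp2-201, have coding sequences of 1245 bases that differ by 4 substitutions, G270C, C408T, C729T and C735A (Tgtp1 base first, counted from the A of the start codon). All 4 fall on the last base of a codon and leave the encoded amino acid unchanged. After the coding sequence they differ by 1 base in 1305, and before it by 1 base and gaps of 13 bases in all. The stretch around C408T shows how alike the copies are, with the differing base in capitals (chr11:48987469-48987469 in Tgtp1 and chr11:49059336-49059336 in Tgtp2, both on the minus strand).
Tgtp1: gtttggtgagtaCgacttcttcatt
Tgtp2: gtttggtgagtaTgacttcttcatt
Of the 31-base words in all transcripts of Tgtp1, 83.2% also occur in Tgtp2, and 89.2% of those of Tgtp2 occur in Tgtp1. For the other members the share of words found in any other gene was 2.88% in Irgm1, 6.37% in Ifi47, 6.92% in Iigp1, 10.7% in Irgm2 and 15.9% in Igtp. Igtp and Irgm2 share most of theirs with each other (15.9% of the words of Igtp and 9.16% of those of Irgm2), and transcript Irgm2-201 begins at position 58199618, inside the span of Igtp.

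The split between the Tgtp copies nevertheless came out nearly the same in both deposited quantifications. Both start from the same libraries and annotated transcripts, so an error common to both would not show. Tgtp1 took 15.1%, 7.38% and 6.52% of the expected counts of the pair in replicates 1, 2 and 3, and 15.3%, 7.45% and 6.7% of the estimated counts of the table with kallisto column names. The deposited posterior standard deviation of the Tgtp1 count was 1.16%, 2.3% and 1.86% of that count. It covers the assignment of reads within the authors' model and nothing else. The difference in this share between replicate 1 and the others was larger than that deposited uncertainty. Summed over both copies the level was 351.9, 107.59 and 147.4 TPM (202 ± 131).

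**Figure D3:**
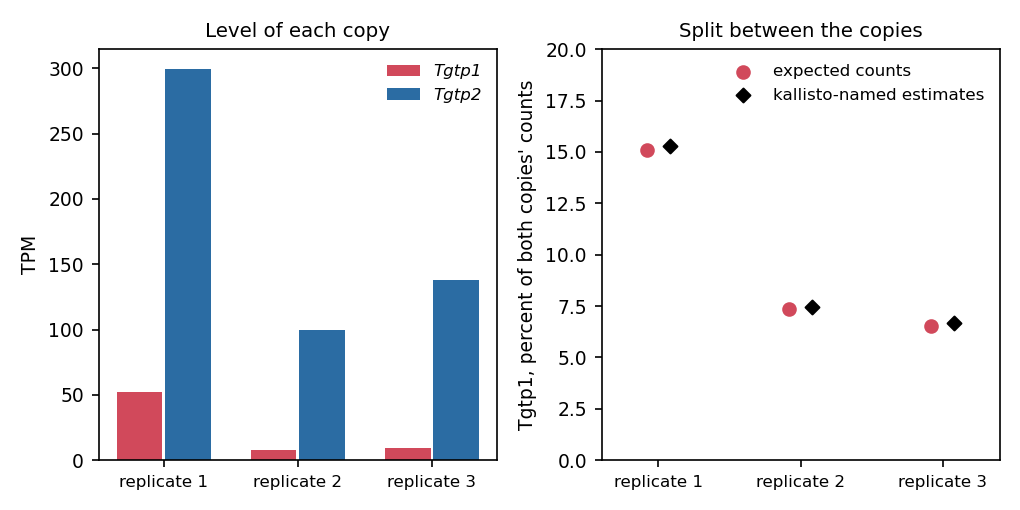
Left, TPM of Tgtp1 and Tgtp2 in each library. Right, the percent of the pair's counts assigned to Tgtp1 in the table with expected counts (circles) and in the table with kallisto column names (diamonds), at 15.1% and 15.3% in replicate 1 and 6.52% to 7.45% in replicates 2 and 3.

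For the other members too the quantifications gave counts that stayed close. Estimated counts of the kallisto-named table were 1.03 to 1.17 times the expected counts over the 7 members and 3 libraries, with the highest ratio in Iigp1. The totals of that table were larger as well, at 36920406, 66313999 and 74789679 estimated counts in replicates 1, 2 and 3. As a share of the total, every member was therefore lower there in replicates 2 and 3. Genes on the opposite strand or overlapping on the same one lie over several members. Olfr56 (14.1 TPM on average) spans Tgtp1, Tgtp2 and Ifi47, on the strand of Ifi47 and opposite to the Tgtp genes, and Gm12185 (2.66 TPM) overlaps Tgtp1 on its own strand. The strand setting of the counting is not given in the sources, so reads of opposite-strand partners cannot be told apart.

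Each gene was made up mainly of 1 protein-coding transcript. The members have 24 annotated transcripts, of which 15 reached 5% of their gene in some library of either table. In the table with expected counts the leading share was 75.7% ± 0.672 for Irgm1-202, 85.6% ± 0.788 for Irgm2-202, 89.9% ± 1.01 for Igtp-201, 87.0% ± 2.57 for Iigp1-202, 97.1% ± 1.2 for Tgtp1-201, 97.6% ± 0.742 for Tgtp2-201 and 92.6% ± 1.22 for Ifi47-201 (SD, n = 3). Most of the rest of Irgm1 was Irgm1-201, at 23.3%, 24.4% and 24.8% in replicates 1, 2 and 3. Irgm2-203 held 11.1% ± 0.926 of Irgm2, and Igtp-202 held 5.04%, 6.81% and 6.01% of Igtp. Iigp1-201 held 8.55%, 10.9% and 11.2% of Iigp1. In the kallisto-named table the leading share was lower and more variable for Iigp1-202 (78.6% ± 5.26), Tgtp1-201 (76.5% ± 5.27), Tgtp2-201 (79.6% ± 7.16) and Ifi47-201 (75.0% ± 5.54).

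The composition of Iigp1 differed between libraries. Its transcripts without a coding sequence, Iigp1-203 and Iigp1-205, held 7.45% of the gene in replicate 1, against 0.37% and 0.5% in replicates 2 and 3. The kallisto-named table gave 9.9%, 0.85% and 0.96%. Iigp1-203 had 475, 14 and 27 expected counts and Iigp1-205 had 426, 16 and 30. Both end within the first 4113 bases of the gene, upstream of the stretch that encodes the nucleotide-binding loop (60390037 to 60390060). Replicate 1 is also the library in which the nuclear-retained RNAs were high, and the part of these in the Iigp1 values was not tested.

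The tables differed in the shares of minor transcripts of Tgtp2, Tgtp1 and Ifi47. Tgtp2-202, a 370-base transcript without a coding sequence, held 3.26%, 2.0% and 1.95% of Tgtp2 in the table with expected counts and 27.1%, 21.2% and 12.8% in the kallisto-named table. Tgtp1-203 (764 bases) held 1.85%, 3.3% and 2.75% against 18.8%, 26.4% and 16.6%, and Ifi47-202 held 6.97%, 6.48% and 5.72% against 22.9%, 20.5% and 18.9%. The share of the minor transcripts of these genes is therefore not settled by these tables, while the gene counts moved by no more than 1.08 times for Tgtp1, Tgtp2 and Ifi47.

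**Figure D4:**
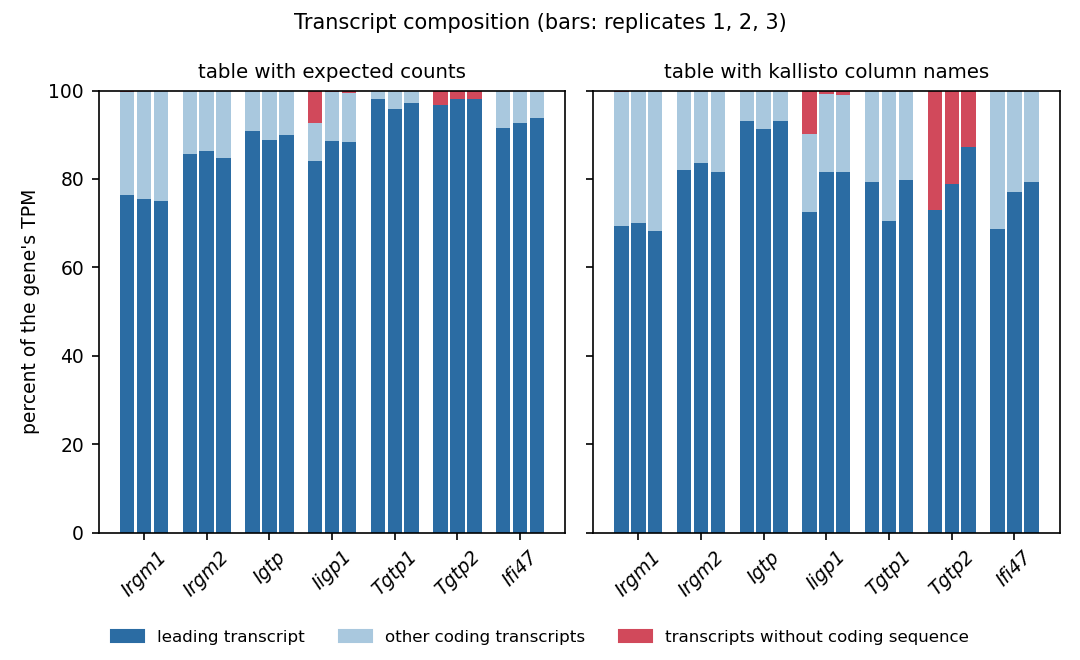
Percent of each gene's TPM in its leading transcript, its other coding transcripts and its transcripts without a coding sequence, in replicates 1, 2 and 3 (bars from left to right), for the table with expected counts and the table with kallisto column names. Iigp1 shows 7.45% without coding sequence in replicate 1, and Tgtp2 shows 12.8% to 27.1% in the kallisto-named table.

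Annotated relatives of the family were lower than its leading members. Of 10 further entries, 8 reached 1 TPM and 5 reached 10 TPM in every library, the latter beside 17.3% of nuclear-encoded protein-coding genes. Gm5431, which RefSeq lists as Irgb9b8, stood at 65.96 ± 20.2 TPM, 9930111J21Rik2 (Irgb5) at 58.65 ± 23.5, and Gm4951 at 45.33 ± 19.5 TPM. 9930111J21Rik1 stood at 61.8, 29.9 and 31.5 TPM in replicates 1, 2 and 3. Gm12250, the gene of Irgb10, an effector that attacks membranes of bacteria, stood at 72.8, 41.0 and 50.1 TPM in replicates 1, 2 and 3, although GENCODE M21 classes it as a processed pseudogene and RefSeq as protein coding. F830016B08Rik stood at 7.89 ± 5.71 TPM, Gm12185 at 2.663 ± 2.04, Gm4841 at 1.71 ± 1.84 and the family's quasi-GTPase Irgq at 3.033 ± 0.238 TPM. Without replicate 1 the mean was 4.6 TPM for F830016B08Rik, 1.5 TPM for Gm12185 and 0.65 TPM for Gm4841. Irgc1, known from testis, had 0, 1 and 2 counts in replicates 1, 2 and 3 and was not tested. Of the 9 tested, 8 were highest in replicate 1, beside 39.8% of all genes, and Irgq was not, at a log2 CPM difference of -0.29. Gm4841 came close to Tgtp1 with a difference of 2.29.

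Guanylate-binding proteins, the other large family of interferon-inducible GTPases, which act with the immunity-related GTPases at vacuoles, had summed levels close to theirs. The 7 immunity-related GTPases summed to 1170.4, 507.1 and 600.5 TPM in replicates 1, 2 and 3, against 1090, 452.5 and 626 TPM for the 11 guanylate-binding proteins. Gbp2 (281.9 ± 127 TPM), Gbp6 (112 ± 44.8) and Gbp3 (93.29 ± 44.9) led them, and Gbp2b (1.033 ± 0.635) and Gbp10 (2.37 ± 1.94) were lowest. Without replicate 1 the means of Gbp2b and Gbp10 were 0.675 and 1.25 TPM. All 11 were highest in replicate 1, beside 39.8% of all genes tested. Their median log2 CPM difference was 0.82, beside 0.75 over the 7 immunity-related GTPases and -0.01 over all genes tested. Reads shared among the guanylate-binding proteins were not followed further.

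Genes that carry the interferon signal were expressed throughout. The 7 genes of interferon receptors and their kinases all reached 10 TPM in every library, beside 17.3% of nuclear-encoded protein-coding genes. Ifnar2, a chain of the type I receptor, led at 65.26 ± 8.43 TPM, followed by the kinase Jak1 at 37.92 ± 4.67 and Ifngr2, a chain of the interferon gamma receptor, at 36.69 ± 5.33 TPM. Ifnar1 at 25.06 ± 4.3 and Tyk2 at 24.49 ± 9.42 TPM were lowest. Of the 7, 5 were highest in replicate 1, beside 39.8% of all genes, with a median log2 CPM difference of 0.09. The kinase Jak2 had the largest difference of the list, 0.83, followed by Tyk2 at 0.51, and Ifngr1 the lowest at -0.23.

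Of the transcription factors of interferon responses, 5 are reported here. Stat2, which acts with Irf9 in type I interferon signalling, stood at 145.7 ± 56.0 TPM. Irf1, which interferon gamma induces and which binds ISRE-type elements, stood at 82.0, 44.3 and 47.1 TPM in replicates 1, 2 and 3, and Irf8 at 51.58 ± 4.79, Irf2 at 31.6 ± 9.63 and Irf9 at 24.98 ± 3.50 TPM. Replicate 1 was higher by 0.52 for Stat2, 0.54 for Irf1 and 0.41 for Irf2 on the log2 CPM scale, and Irf8 and Irf9 had differences of -0.06 and 0.07. Of these 5 genes, 4 varied beyond counting error, beside 71.5% of all genes tested, and Irf9 did not pass (chi-square test with edgeR's TMM library sizes, adjusted p = 0.0557). Ifnb1, which encodes interferon beta, had 95, 39 and 51 expected counts and 4.04, 0.79 and 0.97 TPM in replicates 1, 2 and 3. Ifng, which encodes interferon gamma, had 0, 2 and 5 counts, where a count of 0 allows up to 3 counts (counting error only).

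The LC3 and GABARAP conjugation system, which directs the immunity-related GTPases to vacuoles, was present as well. All 10 of its genes checked reached 1 TPM and 7 reached 10 TPM in every library, the latter beside 17.3% of nuclear-encoded protein-coding genes. Gabarap led at 257, 267 and 232 TPM in replicates 1, 2 and 3, with Map1lc3b at 25.94 ± 3.30 and Gabarapl1 at 22.25 ± 4.37 TPM, and Map1lc3a (4.66 ± 0.90) and Atg16l1 (6.427 ± 2.56) were lowest. Their median log2 CPM difference in replicate 1 was -0.13, with 2 of 10 highest there, beside 39.8% of all genes tested. Of the genes that mark vacuoles with ubiquitin and bind it, Sqstm1, which encodes p62, stood at 245.6 ± 54.8 TPM, Ube2n at 46.7 ± 8.30, Trim21 at 22.59 ± 8.16 and Traf6 at 5.03 ± 1.01 TPM.

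The genes nearest to the family's median pattern across the 3 libraries were I830077J02Rik, Rbl1, Nsmaf, Ifit2, Plac8 and Cd40. They had the smallest Euclidean distances, 0.0293 to 0.0366, between centred log2 CPM profiles among 9898 protein-coding genes averaging 100 counts or more. The members' median profile was 0.5, -0.44 and -0.1 in replicates 1, 2 and 3, and that of I830077J02Rik, the nearest, was 0.5, -0.41 and -0.09. With 3 points of which replicate 1 sets most of the distance, this likeness describes these libraries alone.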

How the data were processed

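Cytosolic total RNA of 3 libraries of a single group was analysed. The authors deposited expected counts (estimates that need not be whole), posterior mean counts and TPM per gene and transcript, with RSEM column names, against mm10 and GENCODE M21, as the notes beside the deposited files state. Transcript shares were deposited as a percent of their gene, per the file headers, and the deposited posterior standard deviation of a count was used as a score of assignment uncertainty. A further deposited transcript table holds estimated counts and TPM under kallisto column names and was summed per gene, with 86 genes lacking an entry there. The aligner, the versions of its tools, the strand used and any filter are not given in the sources.

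Entries that name no gene (0.435%, 0.134% and 0.082% of counts in replicates 1, 2 and 3) were left out. Rounded expected counts entered edgeR 4.0.16 (R 4.3.3), which supplied the expression filter, TMM library sizes, an intercept-only dispersion fit and log2 CPM with a prior count of 2. A chi-square test of each gene's counts against a common rate, adjusted by Benjamini-Hochberg over all genes at 0.05, was tested on simulated data. The simulated counts held read-sampling error and set changes in a single library, without the spread or the assignment error of these data. No contrast exists between these libraries, and the difference of replicate 1 from the others has no test. Tables were joined with Python 3.11.15, pandas 2.3.3 and numpy 2.4.6. Words of 31 bases were compared on both strands, and coding sequences and promoters were aligned globally.

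All members are named. Other named genes are every annotated relative, the 3 highest and 2 lowest of each further list by mean TPM (all in lists of 6 or fewer), and the 6 nearest in pattern. Marker lists are given by counts and sums, with markers at 0 counts named. Jak2, Ifngr1, Adar, Olfr382, LOC115488470 and Olfr56 were chosen after their values were seen. The members and lists were chosen with earlier results of these data known. A gene of a further list is not reported here. A planned search of protein sequences was not run, since no protein table was used here. Alternatives were the kallisto-named table, TPM within protein-coding genes, other library sizes, prior count and filter, and leaving out each library.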

Additional observations from a re-analysis of the deposited data

How the results depend on the processing

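Of the mean levels, those of Irgm1, Irgm2, Igtp and Ifi47 moved by more than the SD between libraries in the kallisto-named table, to 92.12, 27.75, 36.54 and 46.25 TPM. Those of Iigp1, Tgtp1 and Tgtp2, whose SDs are wider, stood at 66.54, 15.59 and 111.4 TPM there. There protein-coding genes hold 24.3%, 10.1% and 8.2% of TPM in replicates 1, 2 and 3. Rescaled to the nuclear-encoded protein-coding genes of each library, the members stood at 671 (Irgm1), 195 (Irgm2), 249 (Igtp), 391 (Iigp1), 71.9 (Tgtp1), 576 (Tgtp2) and 312 (Ifi47), a rise set by the smaller denominator. Of 21 pairs of members, 20 kept their order in the kallisto-named table, where Tgtp2 stood above Irgm1, and 21 without any single library. Without each library in turn, 5126 to 7667 genes varied beyond counting error, the fewest without replicate 1, and the BCV was 0.0983 to 0.223 for Irgm1, 0.103 to 0.251 for Irgm2, 0.116 to 0.262 for Igtp, 0.122 to 0.32 for Iigp1, 0.105 to 0.484 for Tgtp1, 0.141 to 0.331 for Tgtp2 and 0.101 to 0.239 for Ifi47, lowest without replicate 1 for each. All 7 members were higher in replicate 1 under every library size, prior count, filter and quantification tried, and their median log2 difference ran from 0.65 to 0.76, against 0.57 without replicate 2 and 0.93 without replicate 3. The median of all genes ran from -0.06 to 0.02 over these. All 7 varied beyond counting error under each alternative, beside 40.4% (without replicate 1) to 76.8% (kallisto-named table) of all genes tested, so this does not set them apart. Of 185 recomputed values, 159 stayed within the SD between libraries or, for counts and BCV, within 1.5 times, and none changed sign. Part of this tally was fixed in advance, since leaving out 1 of 3 libraries always moves a mean by less than the SD. Only the log2 differences could change sign. The tally is therefore no measure of how robust the values are. The leading transcripts held 69.2% (Irgm1-202) to 92.5% (Igtp-201) of their genes in the kallisto-named table. The number of libraries limits the precision, and for Tgtp1, with 1886 counts or more, so does the assignment of reads, since 84.4% of its 31-base words occur in other genes. No paired analysis was possible because there is a single group.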
